A study of Mus musculus with 2 samples.

Results

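Cytosolic ribosomal protein genes encode the proteins of the large (60S) and small (40S) subunits of the ribosome outside mitochondria. The members were taken as the GENCODE M21 protein-coding genes whose symbol is Rpl or Rps followed by digits and an optional x, a, l or p ending, with Rpsa, Rplp0, Rplp1 and Rplp2, and without the S6 kinases and Rps19bp1. The rule found 80 genes, 49 of the 60S and 31 of the 40S subunit, among 21728 protein-coding genes of the autosomes and the X chromosome. It used symbols only and no measured value.

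Open chromatin was measured by DNase-seq. The enzyme DNase I cuts accessible DNA and the positions of its cuts are read by sequencing, so that openness appears as a peak of cuts and a bound protein as a short protected stretch, a footprint, inside it. The tissue was whole ovary of adult female B6CASTF1/J mice, first-generation hybrids of C57BL/6 and CAST, aged 18 to 20 months. No treatment is named, and both libraries, numbered as biological replicates 1 and 2, belong to 1 group. They are separate biosamples under the same donor entry, and it is not stated whether they came from the same animal. With 1 group of 2 libraries no test over samples was possible, so counts, medians and ranges are given beside the same values over all protein-coding genes, and an SD with n = 2 describes these libraries only.

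The longer peak lists held 95898 peaks in replicate 1 and 83982 in replicate 2, and 181762 and 200993 footprints were deposited. The absolute read depth is unknown. Promoter peaks in both replicates were present at 6 of 7 granulosa cell markers, 2 of 3 stromal and 2 of 3 endothelial markers, and at 0 of 3 leukocyte and 0 of 3 hepatocyte markers. Foxl2, a transcription factor that defines granulosa cells, had promoter signals of 3.81 and 4.28.

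Every ribosome needs 1 copy of nearly every ribosomal protein, and cells keep the supply of these proteins close to balance. In mammals many of the genes are short, have promoters rich in CpG dinucleotides and carry small nucleolar RNA genes (snoRNAs, which guide modification of ribosomal RNA) in their introns. Their messages typically start with a C followed by a run of pyrimidines, the 5′ terminal oligopyrimidine tract, through which mTOR signalling controls translation. In the ovary, growing oocytes are known for building up a store of ribosomes.

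The 6 members with the strongest promoters by mean percentile are shown first, from 150 bp before to 23 bp after the annotated start on the transcribed strand, in build GRCm38 (mm10). Capitals mark bases that lay in a deposited footprint in both replicates, so the pattern of protected and unprotected bases can be read along each promoter.
Rplp0, chr5:115559317-115559490, plus strand: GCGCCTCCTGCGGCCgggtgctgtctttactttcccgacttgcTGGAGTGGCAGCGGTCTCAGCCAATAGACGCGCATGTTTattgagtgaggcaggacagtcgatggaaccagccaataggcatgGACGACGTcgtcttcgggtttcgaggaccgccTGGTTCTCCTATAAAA
Rpl9, chr5:65391421-65391594, minus strand: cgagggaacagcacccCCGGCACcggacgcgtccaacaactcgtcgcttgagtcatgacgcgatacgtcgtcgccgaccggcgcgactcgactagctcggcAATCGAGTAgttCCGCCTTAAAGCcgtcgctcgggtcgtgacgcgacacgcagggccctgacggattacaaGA
Rpl15, chr14:18271044-18271217, minus strand: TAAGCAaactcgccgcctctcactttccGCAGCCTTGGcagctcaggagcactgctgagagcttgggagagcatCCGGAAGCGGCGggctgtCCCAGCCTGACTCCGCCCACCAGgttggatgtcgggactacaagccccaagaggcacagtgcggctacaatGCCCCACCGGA
Rpl37, chr15:5116495-5116668, plus strand: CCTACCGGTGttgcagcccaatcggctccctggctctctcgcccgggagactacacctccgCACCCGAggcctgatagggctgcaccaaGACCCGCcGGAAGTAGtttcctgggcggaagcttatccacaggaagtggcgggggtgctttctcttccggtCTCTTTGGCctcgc
Rpl7a, chr2:26910614-26910787, plus strand: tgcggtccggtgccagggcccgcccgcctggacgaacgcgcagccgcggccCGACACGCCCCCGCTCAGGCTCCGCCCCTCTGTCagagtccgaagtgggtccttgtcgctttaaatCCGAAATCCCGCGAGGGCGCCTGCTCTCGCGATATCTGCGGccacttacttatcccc
Rpl13a, chr7:45128738-45128911, minus strand: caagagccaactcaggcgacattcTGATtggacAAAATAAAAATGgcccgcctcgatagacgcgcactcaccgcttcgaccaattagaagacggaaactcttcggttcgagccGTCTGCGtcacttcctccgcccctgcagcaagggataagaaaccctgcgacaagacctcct

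The ribosomal protein promoters were open almost without exception. A promoter peak, that is a peak of the longer deposited list within 500 bp of any annotated start, was found in both replicates at 77 of 80 members (96.2%), against 62.3% of all protein-coding genes. All 31 genes of the 40S subunit and 46 of 49 genes of the 60S subunit were open. The others, Rpl10l, Rpl39l and Rpl3l, had a promoter peak in neither replicate, and no member was open in 1 replicate only. In whole tissue, fewer cells with an open promoter and a less open promoter in each cell cannot be told apart.

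Promoter signal, the authors' depth-scaled strength of the strongest promoter peak, had a median over the 77 open members of 6.68 in replicate 1 and 6.67 in replicate 2. The medians over all open genes were 3.96 and 4.06. Members ranged from 1.98 to 17.6 in replicate 1 and from 1.32 to 20.1 in replicate 2. Ranked within each replicate among genes with a promoter peak and averaged over both, members had a median percentile of 71.9, with an interquartile range of 59.6 to 86.4. The open genes as a whole had a median of 51.7, with a wider interquartile range of 27.6 to 75.5. Above the 50th percentile lay 66 of 77 members (85.7%), against 51.9% of open genes. Above the 90th percentile lay 17 members (22.1%), against 9.81%. No member fell into the lowest quintile of open genes, and the lowest member, Rpl4, lay at the percentile 24.1. The group thus shared a mostly middle to high signal. Its percentiles were less spread than those of open genes, but its members did not share 1 common level.

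**Figure D1:**
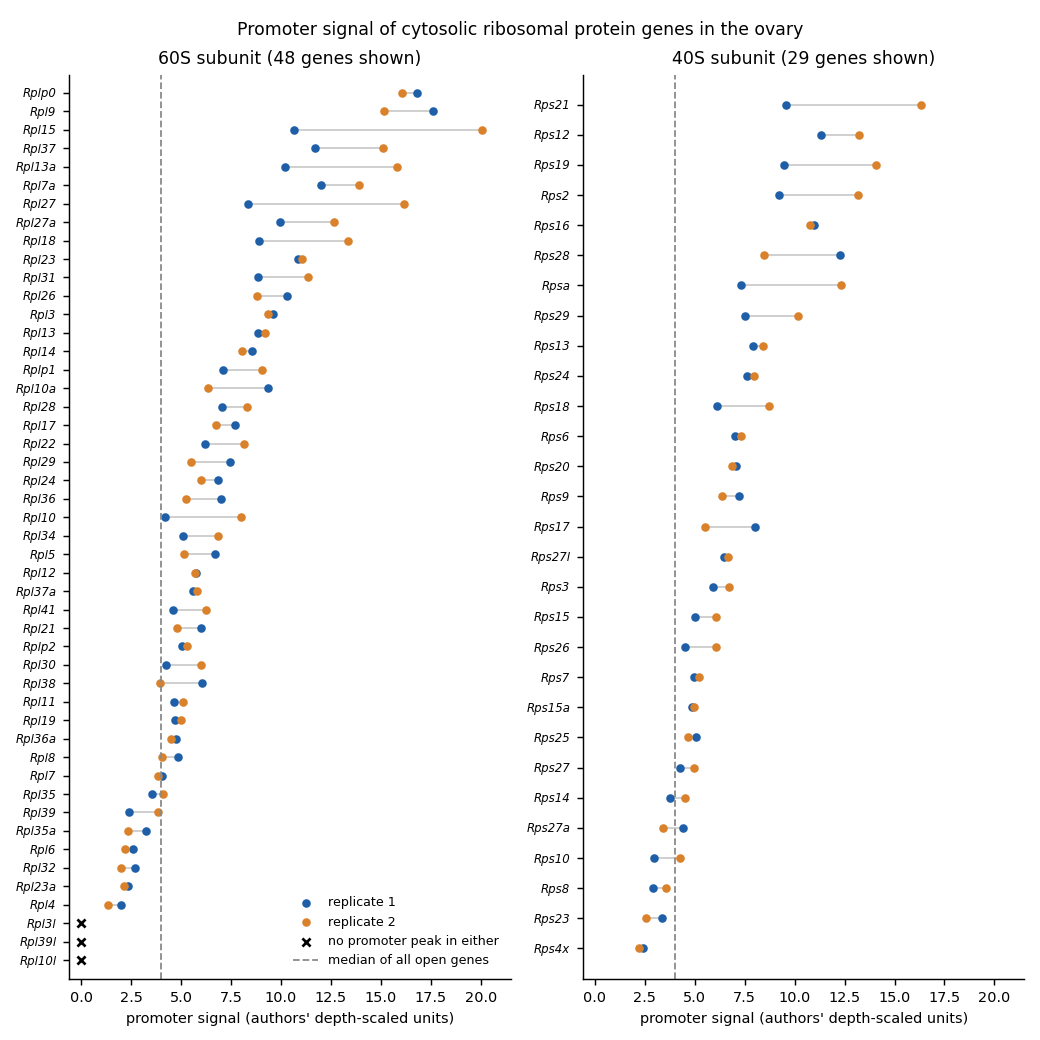
Promoter signal of 77 of the 80 members in replicate 1 (blue) and replicate 2 (orange), by subunit and sorted by the mean; crosses mark the 3 members with no promoter peak and the dashed line is the median of all open genes, averaged over both replicates. Most members lie right of the line in both replicates, from 1.98 and 1.32 at Rpl4 to 16.8 and 16.1 at Rplp0.

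The subunits did not separate. The 46 open 60S genes had a median percentile of 70.4 and the 31 40S genes of 73.6. Median signals were 6.44 and 6.30 for the 60S genes in replicates 1 and 2, and 7.02 and 6.69 for the 40S genes. Among 40S genes Rps12 had the highest percentile, 93.9, with signals of 11.3 and 13.2. The 6 members with the highest percentiles all belonged to the 60S subunit.

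The stalk of the 60S subunit, which recruits translation factors to the ribosome, is built from the products of Rplp0, Rplp1 and Rplp2. Rplp0, the base of the stalk, had the highest percentile of all members, with signals of 16.8 and 16.1 and a mean of 16.4 ± 0.525 (SD, n = 2). Rplp1 had 7.08 and 9.04, and Rplp2 had 5.05 and 5.31. In both replicates Rplp0 was highest and Rplp2 lowest, and the values of the 3 genes did not overlap, although their products make 1 complex. Rpl5 and Rpl11, whose products join the 5S ribosomal RNA and can bind the p53 regulator Mdm2, lay at or below the median of the members. Rpl5 had 6.68 and 5.16, and Rpl11 had 4.65 and 5.11.

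Among the other members with the strongest promoters, Rpl9 had 17.6 and 15.1, and Rpl15 had 10.7 and 20.1. Rpl37 had 11.7 and 15.1, Rpl7a had 12.003 and 13.9, and Rpl13a had 10.2 and 15.8. With Rplp0 their mean percentiles ran from 94.1 to 97.7. The SD between the 2 replicates ran from 0.525 at Rplp0 to 6.65 at Rpl15, whose mean was 15.4, so the order within these 6 is not resolved.

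The 6 lowest open members lay below the median of all open genes in both replicates. Rpl4, whose product lines the exit tunnel for the growing peptide, had 1.98 and 1.32. Rpl23a, at the mouth of the same tunnel, had 2.34 and 2.16. Rps4x, a 40S gene on the X chromosome, had 2.41 and 2.20, and Rpl32 had 2.68 and 1.99. Rpl6 had 2.61 and 2.20, and Rpl35a had 3.26 and 2.37. Every one of these 6 was lower in replicate 2 than in replicate 1. They were chosen by a mean that includes replicate 2, and the ratio between the libraries varied with signal. Over open genes the median log2 ratio of replicate 2 to replicate 1 rose from -0.06 in the weakest quintile of signal to 0.43 in the strongest. In the second weakest quintile, which holds these 6, it was -0.04 over open genes and -0.32 over its 8 members. Over all members replicate 2 was the higher in 46 of 77 (59.7%), against 61.6% of open genes.

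Members with known roles beyond the structure of the ribosome lay across the range. Rps6, the target of the S6 kinases downstream of mTOR, had 7.02 and 7.31. Rpsa, which also encodes a receptor for laminin, had 7.30 and 12.3. Rps27a, whose product is made as a fusion with ubiquitin, had 4.39 and 3.42, close to the median of all open genes. Among cytosolic ribosomal components that the naming rule leaves out, Fau, which encodes a fusion of a ubiquitin-like protein with the 40S protein S30, had 9.30 and 13.0, and Rack1, a scaffold on the 40S subunit, had 3.70 and 3.35.

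The X chromosome holds 4 members, Rpl10, Rpl36a, Rpl39 and Rps4x. Rpl10, which takes part in joining the subunits, had 4.19 and 8.003. Rpl36a had 4.74 and 4.51, and Rpl39 had 2.39 and 3.85. Their median percentile, with Rps4x, was 49.7, against 73.6 for the 73 open autosomal members. Over all open genes the X chromosome had a median of 34.0 and the autosomes of 52.4. In the median, the 4 members on the X chromosome were thus lower than autosomal members, as X-linked genes in general were lower than autosomal genes. Their percentiles ran from 33.1 to 65.3. In replicate 2 Rpl10 lay above the median signal of the open autosomal members, 6.69.

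In the median over all members the libraries gave similar values. Over the members the median log2 ratio (replicate 2 over replicate 1) was 0.06, from -0.62 to 0.95, and over all open genes it was 0.11. The ratio differed by signal. In the second weakest quintile its median was -0.32 over members and -0.04 over open genes, and in the strongest it was 0.36 and 0.43. No member differed by more than 2-fold, against 1.91% of open genes. The largest ratios were those of Rpl27, with signals of 8.34 and 16.1, then Rpl10 and Rpl15. The smallest were those of Rpl38, with 6.04 and 3.94, then Rpl4, and Rpl10a with 9.37 and 6.36. In 3 of 77 members, Rpl7, Rpl18 and Rpl39, the strongest promoter peaks of the replicates did not overlap (3.90%, against 4.63% of open genes). At Rpl18 the strongest peak of replicate 1 had its base of lowest false discovery rate 2587 bp after the annotated start, whereas at the annotated start itself the signals were 8.39 and 13.4.

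The closed members are all paralogs of open ones. Rpl10l and Rpl39l are copies of the X-linked Rpl10 and Rpl39 that are known for expression in the testis, and Rpl3l is a copy of Rpl3 known from skeletal and heart muscle. Within 500 bp of their starts no footprint was listed in either replicate. No base there had a false discovery rate below 0.05 at Rpl39l or Rpl3l, and at Rpl10l such bases numbered 0 in replicate 1 and 23 in replicate 2. The nearest peak to Rpl10l was 24.4 kb away in replicate 1 and 281 kb in replicate 2. For Rpl39l it was 22.6 and 22.5 kb away, and for Rpl3l 3.26 and 3.28 kb. Rpl3l lies on chromosome 17 with its start 7.76 kb from that of Rps2, a member with signals of 9.21 and 13.2. Of the muscle markers, Ckm had a promoter peak of 1.05 and 1.41, and Acta1 and Myh1 had none. The open parents had 9.58 and 9.34 (Rpl3), 4.19 and 8.003 (Rpl10), and 2.39 and 3.85 (Rpl39).

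The pairs Rpl3 with Rpl3l and Rpl10 with Rpl10l are set out below over the same window, to show an open promoter with footprints in capitals next to a closed one with none.
Rpl3, chr15:80083383-80083556, minus strand: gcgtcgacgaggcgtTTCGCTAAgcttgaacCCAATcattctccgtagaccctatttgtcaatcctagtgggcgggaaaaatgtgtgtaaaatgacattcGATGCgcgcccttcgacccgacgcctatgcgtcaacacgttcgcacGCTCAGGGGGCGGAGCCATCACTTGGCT
Rpl3l, chr17:24727670-24727843, plus strand: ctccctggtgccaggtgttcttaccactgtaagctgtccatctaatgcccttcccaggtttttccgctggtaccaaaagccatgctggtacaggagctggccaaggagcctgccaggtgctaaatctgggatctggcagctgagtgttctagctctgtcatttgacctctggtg
Rpl10, chrX:74270662-74270835, plus strand: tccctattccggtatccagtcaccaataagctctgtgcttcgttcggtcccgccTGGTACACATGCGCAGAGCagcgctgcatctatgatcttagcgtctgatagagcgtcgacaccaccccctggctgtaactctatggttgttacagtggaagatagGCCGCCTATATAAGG
Rpl10l, chr12:66284378-66284551, minus strand: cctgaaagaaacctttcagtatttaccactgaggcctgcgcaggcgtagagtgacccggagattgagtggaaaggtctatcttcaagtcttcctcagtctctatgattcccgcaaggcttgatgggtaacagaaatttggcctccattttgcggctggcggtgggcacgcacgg
The ratio of observed to expected CpG, over 250 bp before to 50 bp after the start, was 0.0893 at Rpl3l, 0.643 at Rpl10l and 0.836 at Rpl39l. The medians were 0.84 over all members and 0.56 over all protein-coding genes, so of the closed members only Rpl3l lay far below both. The Rpl10l window has a near copy on chromosome 2 that covers 50.9% of it at 96.9% identity, so reads from there could be lost or shared. By the same criterion, at least 90% identity over at least 50% of the window or peak, the only other member with a copy elsewhere was Rpl29.

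Against other gene lists of the protein synthesis machinery, the members lay in the middle. All 78 mitochondrial ribosomal protein genes were open, with a median percentile of 55.7. All 20 genes of the ribosome assembly list, which also held the p53 regulator Mdm2, were open, with a median of 68.6. So were all 14 translation factors and other genes known for 5′ pyrimidine tracts, with a median of 90.3. Among the last, Eef1g, a subunit of the elongation factor complex that reloads eEF1A, had 11.2 and 19.8, and Npm1, the nucleolar chaperone nucleophosmin, had 12.7 and 17.1. The lists differ in size and were not tested against each other.

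**Figure D2:**
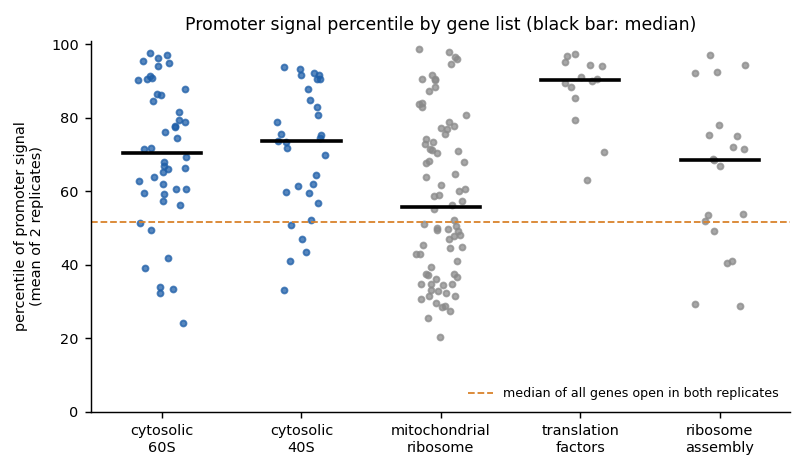
Mean percentile of promoter signal of each open gene (points) in the 60S and 40S lists (blue) and in the 3 other lists (grey), with the list median as a black bar; the dashed line is the median of 51.7 over all open genes. The list of translation factors and related genes has the highest median, at 90.3, and mitochondrial ribosomal genes the lowest, at 55.7.

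Promoter peaks of the members were about as wide as those of other genes, with medians of 220 and 200 bp against 220 bp in both replicates. Because the deposited lists mark no summit, the base of lowest false discovery rate inside each peak was used as its centre of cutting. It lay a median of 22 and 23 bp before the annotated start in replicates 1 and 2, against 38 bp in both for all open genes. It lay within 100 bp of the start at 56 and 57 of 77 members (72.7% and 74.0%), against 56.9% of open genes in each replicate.

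Annotated starts of these genes were often ahead of those in RefSeq. A RefSeq start was given for 57 open members, and at 31 of them (54.4%) it lay more than 5 bp downstream of the GENCODE one, against 31.7% of open genes. Measured from the RefSeq start, the base of lowest false discovery rate lay a median of 43 and 53 bp upstream at the members, against 44 bp at all open genes in both replicates. The smaller distance of the members from the GENCODE start was thus not seen with RefSeq starts. At Rps25, for example, that base lay 508 and 510 bp after the GENCODE start and before the RefSeq start, which is 575 bp after it. Rpl35 had its own at 435 and 432 bp, with the RefSeq start at 492 bp.

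All 77 open members had at least 1 footprint in the strongest promoter peak in both replicates, against 95.1% of open genes. The median number per peak was 5 and 4, with a range of 1 to 13 and 1 to 9, and the median over open genes was 4 in both. Footprints were a median of 12 bp wide. Of 363 footprints in member peaks of replicate 1, 75.8% were found again in replicate 2, and of 349 in replicate 2, 74.5% in replicate 1. Over all open genes these shares were 71.7% and 65.6%. Rps19, the 40S gene most often mutated in human Diamond-Blackfan anaemia, had the most in replicate 1, with 13, and 8 in replicate 2, in peaks of 680 and 620 bp.

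Footprints covered a median of 29.0% and 31.1% of the bases of a member's peak, against 23.7% and 25.8% over open genes. Rplp0 had 54.1% covered in both replicates, and Rpl32 had 7.5% and 4.38%. Over all open genes this share rose with signal, from 8.04% in the weakest quintile to 35.4% in the strongest in replicate 1, so members were also set beside genes of the same quintile of signal. In the strongest quintile, 26 members had medians of 32.6% and 34.6% where all genes had 35.4% and 37.5%. In the next, 28 members had 29.3% and 29.7% where all genes had 30% and 32.5%. In each of these quintiles the members' medians lay slightly below those of all genes.

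**Figure D3:**
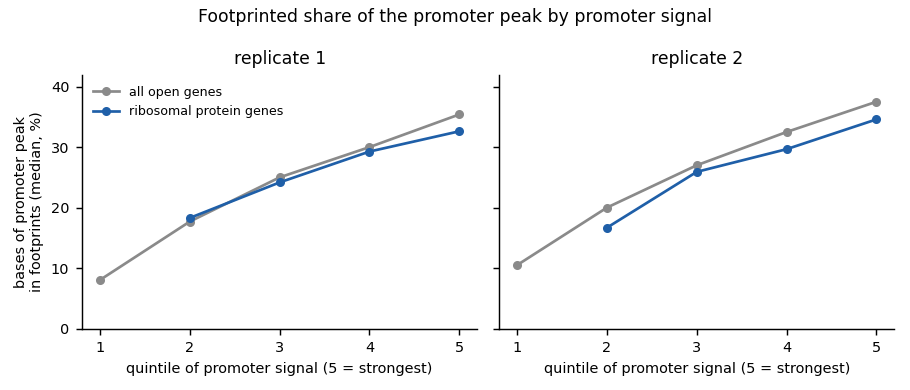
Median share of promoter peak bases in footprints (percent) by quintile of promoter signal, for ribosomal protein genes (blue) and all open genes (grey), in each replicate; no member falls into the lowest quintile. Both lines rise with signal, to 32.6% and 35.4% in the strongest quintile of replicate 1.

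Along the promoter, footprints of the members were most frequent shortly before the start. In replicate 1 the highest share of members with a footprint over a single base was 37.7%, at 45 bp before the start, and in replicate 2 it was 37.7% at 35 bp before it. Over open genes the highest shares were 23.4% at 16 bp and 25.2% at 15 bp before the start. The place of the members' maximum was not shared by the replicates. At 35 bp before the start replicate 1 had 18.2% of members, against 22.3% of open genes. At 45 bp before it replicate 2 had 28.6%, against 24.4%. A maximum over single bases also varies more in 77 genes than in all open genes. In every interval examined between 200 bp before and 200 bp after the start, footprints covered a larger share of member bases than of bases at open genes. The shares were 23.2% and 26.0% against 17.0% and 18.6% from 0 to 24 bp after the start, 23.6% and 24.99% against 12.4% and 14.2% from 25 to 49 bp, 11.8% and 14.3% against 8.58% and 10.97% from 50 to 99 bp, and 6.92% and 8.19% against 3.14% and 4.14% from 100 to 200 bp. These intervals were not compared within quintiles of signal. Members had higher signal than open genes as a whole, and the footprinted share rose with signal, as given above. Many RefSeq starts of members also lie downstream. The part of signal and of starts in these differences was not tested. Within 5 bp of the start itself, a footprint was present in both replicates at 20 of 77 members (26.0%), against 24.0%, a share close to the background.

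**Figure D4:**
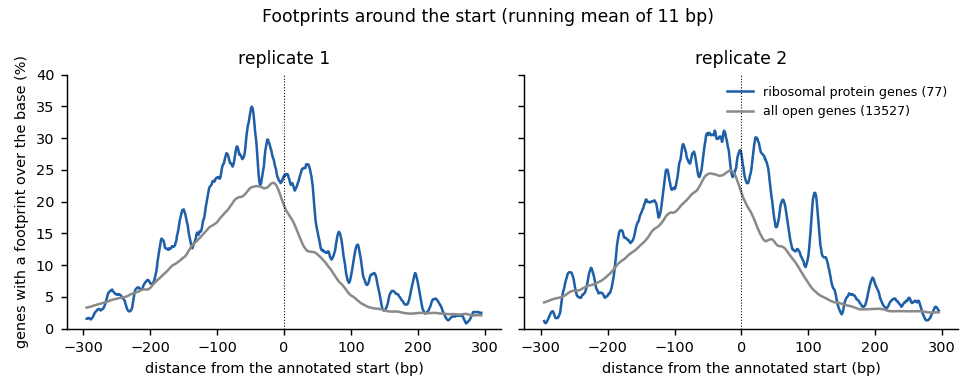
Share of genes with a footprint over each base (percent, running mean of 11 bp) by distance from the annotated start in bp, for 77 ribosomal protein genes (blue) and 13527 open genes (grey), in each replicate. The blue line lies above the grey one over most of the stretch from 200 bp before to 200 bp after the start.

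Short consensus sequences of known promoter factors were searched on both strands, without mismatch, from 250 bp before to 50 bp after the annotated start. The ETS consensus CCGGAAG, known as the core bound by GABP and other ETS factors, was found at 25 of 80 members (31.2%), against 11.3% of all protein-coding genes and 16.5% of open ones. The CGCG element TCGCGAG was found at 16 members (20.0%), against 2.66% of all genes and 3.92% of open ones. Either was found at 37 members (46.2%), against 13.3% of all genes, and 4 members had both. Since its reverse complement overlaps it, a full palindrome counts as 2 matches of the CGCG element.

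In percentage points, the other sequences lay closer to the shares of all genes and of open genes. Relative to its share of open genes, however, YY1 was about as raised as ETS. YY1 (AAGATGG) matched 10 members (12.5%, against 6.38% of all genes and 6.96% of open ones). The CREB site (TGACGT) matched 13 (16.2%, against 8.90% and 11.6%). The NRF1 core (GCATGCG) matched 8 (10%, against 4.39% and 6.25%) and the E-box (CACGTG) 9 (11.2%, against 7.76% and 9.80%). SP1 (GGGCGGG) matched 32 members (40%), between the 33.8% of all genes and the 47.5% of open ones. NF-Y (CCAAT) matched 25 (31.2%), against 38.4% of all genes and 38.1% of open ones. The TATA box (TATAAA on the transcribed strand, 40 to 20 bp before the start) matched 0 members, against 2.49% of all genes and 1.04% of open ones. Anywhere within 100 bp of the start it matched 6 of 80, namely Rpl30, Rpl36a, Rpl39, Rplp0, Rps2 and Rps28. That is 7.5%, against 6.11% of all genes and 2.65% of open ones. A match is a description of letters in the reference and does not show binding, and CAST alleles can differ from it.

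**Figure D5:**
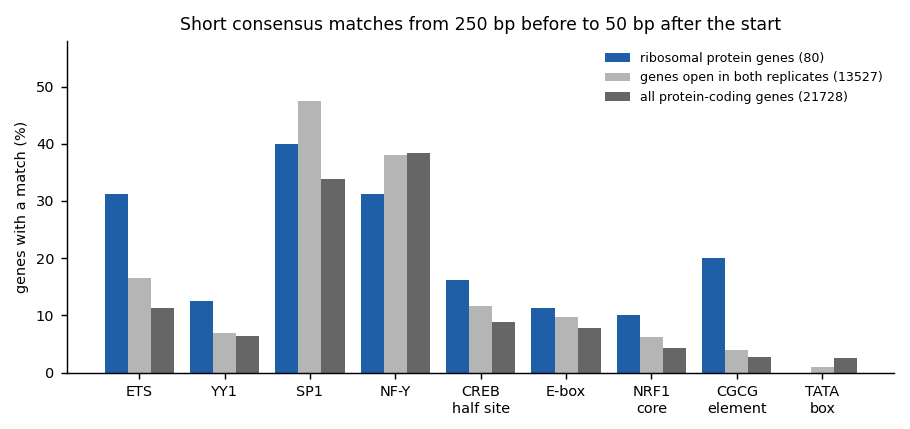
Share of genes (percent) with at least 1 match of each consensus from 250 bp before to 50 bp after the start, for 80 ribosomal protein genes (blue), 13527 open genes (light grey) and all 21728 protein-coding genes (dark grey). The ETS and CGCG bars of the members stand at 31.2% and 20.0%, against 11.3% and 2.66% for all genes.

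The CGCG element also lay in footprints at these promoters. A match was overlapped by a footprint in both replicates at 10 of 77 open members (13.0%), against 1.67% of open genes. Of the 25 matches at members, 15 were centred 50 to 1 bp before the start. Of all 25, 68.0% and 64.0% lay in footprints in replicates 1 and 2, against 51.9% and 55.2% of matches at open genes. Footprints of any kind also covered more of the searched window at open members, 18.9% and 20.1% of bases, against 14.2% and 15.9% at open genes. The part of this cover and of signal in the difference was not tested, and full palindromes count as 2 of the 25 matches. The footprinted elements of 8 of these 10 members are shown on the transcribed strand, with the element in capitals and 10 bases on each side, to let the shared core and its varied flanks be compared.
Rpl7a, chr2:26910746-26910772, plus strand: ggcgcctgctCTCGCGAtatctgcggc
Rps28, chr17:33824545-33824572, minus strand: cgcgtgcggtCTCGCGAGagcgaaagtg
Rpl26, chr11:68901531-68901558, plus strand: ctccgagactCTCGCGAGatctcgcggc
Rpl10a, chr17:28328525-28328552, plus strand: acgggcaactCTCGCGAGaacgcgggct
Rps6, chr4:86857400-86857427, minus strand: gccggctgttCTCGCGAGaacttagagc
Rps15, chr10:80292416-80292442, plus strand: cccggcagagCTCGCGAtaactgcgca
Rps15a, chr7:118116196-118116222, minus strand: accatgaagtCTCGCGAtagcgcttcc
Rpl23a, chr11:78183598-78183624, minus strand: atataagctaTCGCGAGacttttatga
The elements shown span from -42 to 7 bp from the start. In 4 of the 8 (Rps28, Rpl26, Rpl10a and Rps6) the capitals form a full palindrome, and in the other 4 they stop 1 base short of it. The members that carry them range widely in signal, from Rpl7a at 12.003 and 13.9 to Rpl23a at 2.34 and 2.16.

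ETS matches lay in a footprint in both replicates at 10 of 77 members (13.0%), against 5.94% of open genes. They included Rpl15, Rpl37, Rps21, Rps2, Rpl31, Rps18, Rpl11, Rpl8 and Rpl6. In the Rpl15 promoter printed above, the footprinted match opens the run of capitals that begins with CCGGAAG. Of 31 ETS matches in the searched windows of open members, inside a peak or not, 51.6% lay in footprints in replicate 1 and 41.9% in replicate 2. At open genes the shares were 42.1% and 47.2%, so the difference had opposite signs in the replicates. SP1 was footprinted in both replicates at 18 members (23.4%), against 28.6%, and the CREB site at 7 (9.09%), against 5.70%. For the NRF1 core the count was 4 (5.19%, against 4.27%), and for NF-Y it was 6 (7.79%, against 8.88%). The E-box was footprinted at 2 members (2.60%, against 2.42%), YY1 at 1 (1.30%, against 1.32%) and the TATA box at 0, against 0.355%.

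At the annotated start, a C followed by at least 4 pyrimidines was found at 8 of 80 members (10%), against 2.30% of all genes. The count depended on the start: allowing any annotated start of the gene it was 34 (42.5%), against 8.60%, and at RefSeq starts it was 13 of 60 (21.7%), against 2.73%. Of these, 7 stretches, which show how the length of the tract varies, are printed from 10 bp before to 19 bp after the start, with the run of pyrimidines from the start in capitals.
Rpl37, chr15:5116635-5116664, plus strand: ggggtgctttCTCTTCCggtctctttggcc
Rps21, chr2:180257367-180257396, plus strand: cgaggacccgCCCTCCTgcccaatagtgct
Rps24, chr14:24490708-24490737, plus strand: gtgagcggtcCTCTTTTCCTCCTCTCCagc
Rpl36, chr17:56613406-56613435, plus strand: cggtgccgttCTTCCTgtcccggccgccat
Rpl37a, chr1:72711280-72711309, plus strand: gcgtcccttcCTCTTCggacttgggcttgg
Rpl32, chr6:115808728-115808757, minus strand: gccgccgcctCTTCCTTCTTCCTCggcgct
Rpl4, chr9:64173365-64173394, plus strand: caagtctttcCTTTTCCTgtgggagcagcc
The longest of these tracts is that of Rps24 and the shortest are those of Rpl36 and Rpl37a. A footprint over the start in both replicates was found at 3 of the 8 members (37.5%) and at 17 of the 69 others (24.6%). Over open genes these shares were 24.9% with such a start and 24.0% without, and 8 genes are too few to set the members apart. Over the 34 genes with a tract at any start, a footprint covered that start in both replicates at 7 (20.6%), against 10% of the 1449 open genes with such a start. Tract genes on both ends of the signal range were present, from Rpl37 at 11.7 and 15.1 to Rpl4 at 1.98 and 1.32.

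Several members shared their promoter peak with a neighbour. The strongest peak also overlapped the promoter of another protein-coding gene at 14 of 77 members (18.2%), against 18.0% of open genes. An opposite-strand start lay within 1000 bp upstream at 8 of 80 members (10%), against 7.00%. Among these, Rps28 and Ndufa7, a subunit gene of mitochondrial complex I, start 10 bp apart, and Rpl9 and Lias, which encodes lipoic acid synthetase, start 53 bp apart. Rpl15 lies 69 bp from Nkiras1, Rps18 135 bp from Vps52, and Rpl7a 195 bp from Med22, a subunit gene of Mediator. Rpl35a lies 263 bp from Iqcg, Rpl4 271 bp from Zwilch, and Rpl12 304 bp from Lrsam1. Signal at such a peak cannot be divided between the neighbours. At Rpl4 the base of lowest false discovery rate lay at -404 and -496 bp from the start of Rpl4, beyond the start of Zwilch. The shared Rps28 promoter, with signals of 12.3 and 8.46, is shown with footprinted bases in capitals, and includes the CGCG element given above.
Rps28, chr17:33824539-33824712, minus strand: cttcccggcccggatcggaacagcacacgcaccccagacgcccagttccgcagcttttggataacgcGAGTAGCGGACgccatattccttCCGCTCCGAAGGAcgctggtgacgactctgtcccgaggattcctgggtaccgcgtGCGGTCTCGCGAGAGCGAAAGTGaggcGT

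Other shared peaks belonged to members with no opposite-strand representative start of a protein-coding gene within 1000 bp upstream. They were those of Rpl18 with Sphk2, Rps25 with Trappc4, Rps27 with Rab13, Rps27a with Clhc1, Rpl35 with Arpc5l and Rps10 with the readthrough RPS10-NUDT3. RefSeq starts, which lie further downstream at Rps25 and Rpl35, were not searched for opposite-strand neighbours. Of these, Rpl18 was the strongest, with 8.91 and 13.4, and Rps10 the weakest in replicate 1, with 2.98 and 4.26. The 2 values of Rpl18 come from peaks that did not overlap, and at its annotated start the signals were 8.39 and 13.4.

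The members also shared features that the symbol does not carry. A snoRNA gene lay inside the gene on the same strand at 29 of 80 members (36.2%), against 1.19% of all protein-coding genes, and these members held 56 of the 368 such snoRNA genes. Host members had a median percentile of 76.2 and the open members without a snoRNA of 71.6. Rpl4 held 5 snoRNA genes and lay lowest of the open members, and Rpl13a held 4 and lay among the 6 highest. Members were short, with a median gene length of 3328.5 bp against 17429 bp. At 73 of 80 members in replicate 1 and 74 in replicate 2, no peak other than the promoter peaks lay in the gene body (91.2% and 92.5%), against 52.2% and 56.5% of all protein-coding genes, which are longer.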

How the data were processed

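DNase-seq of 2 libraries of 1 group was analysed from the deposited files, all on mouse build mm10 per the labels. Per the text files deposited with the samples, the replicates were not pooled, and each library's alignments gave its peaks, footprints and false discovery rates. For the aligner, the callers and the treatment of CAST alleles, nothing is given in the sources used here. Peak strength is a depth-scaled signal of the authors. Its values were all whole multiples, within 0.05, of a step of 0.0108 in replicate 1 and 0.00782 in replicate 2. The target depth is unknown, so no counting interval can be given. The deposited p-value columns of the peak lists hold no values, every deposited footprint has a p-value label of 0.01 of unstated kind, and false discovery rates are listed only below 0.05. The summit column of the deposited lists is constant at 75 and marks no summit, so the base of lowest false discovery rate in a peak was used instead.

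Genes came from GENCODE M21 on GRCm38.p6, where 27 duplicate symbols of 21755 records were dropped. The representative start was that of the APPRIS principal or best supported transcript. Peaks and footprints overlapped if they shared at least 1 bp. RefSeq starts on the same build (GRCm38.p6) matched 60 of 80 members. All sequences were read from the RefSeq GRCm38.p6 genome. Members were searched for copies with BLAST 2.17.0. Other tools were pandas 2.3.3 and NumPy 2.4.6 under Python 3.11.15, with SciPy 1.17.1 and, for plots, Matplotlib 3.10.9. The assignment of peaks and footprints was tested on simulated data. The motif search was checked on a short made-up sequence only, and motif counts were not simulated. Members, comparison lists and sequences were chosen with earlier results of these data known. Genes named are the 6 highest and 6 lowest members, the closed members, the 3 highest and 3 lowest replicate ratios, members on the X chromosome, the stalk and 5S genes, Rps6, Rpsa, Rps27a and members with shared peaks; others, such as Rps12, Rps19 and carriers of a motif, were named after their values were seen. Alternatives were the shorter lists, other promoter widths and starts, equal numbers of peaks, summed peaks, a wider naming rule, other motif and start windows, and each replicate left out. Some genes that these rules take in are counted but not reported here by name.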

Additional observations from a re-analysis of the deposited data

How the results depend on the processing

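The count of 77 open members and the closed genes Rpl10l, Rpl39l and Rpl3l held under every peak list, promoter width, start and replicate tried for them. Over all protein-coding genes the open share was 62.3% in the main setting. It ran from 57.7% with the representative start alone to 66.2% with promoters of 2000 bp either side. The count with a footprint in both replicates was 76 with promoters of 250 bp either side and 77 under the other settings tried. Over open genes the share with a footprint was 95.1% in the main setting and was not computed for the others. Leaving out each replicate in turn gave a median percentile of 69.7 to 75.7 and a median signal of 6.67 to 6.68. The median signal was 6.69 with promoters of 2000 bp either side, 6.77 with the wider naming rule, 6.72 without the 3 members whose strongest peaks lay apart (an alternative added after seeing the data) and 7.35 as a sum of promoter peaks. The count with a footprint over the start was 25 to 31 when a single replicate was used, since presence in both was then not required (32.5% and 40.3%, against 31.3% and 34.1% of open genes), and 44 with 20 bp either side, a wider window (57.1%, against 48.6%). From the 5′ end of the gene record the base of lowest false discovery rate lay at a median of -8 bp, against -15 bp for open genes. From RefSeq starts it lay at -43 and -53 bp, against -44 bp, so the shorter distance of the members was lost and in replicate 2 turned. A pyrimidine tract was found at 35 members with the looser tract (43.8%, against 31.9% of all genes, a smaller excess than at the stricter tract), at 34 from any annotated start and at 13 from RefSeq starts, the last 2 added after seeing the data. The TATA share was 7.5% within 100 bp of the start, also added later, against 6.11% of all genes and 2.65% of open ones. At its usual place it was 0%, against 2.49% of all genes and 1.04% of open ones, so its relation to the background turned. The motif counts otherwise kept within their counting intervals. No paired analysis was possible because the study has 1 group. What limits these values is the number of libraries, the unknown depth and annotated starts that differ between GENCODE and RefSeq at most matched members.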

Other observations

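Some cytosolic ribosomal protein genes have symbols that the naming rule does not take in. Among them, Rpl22l1, a paralog of Rpl22, had promoter signals of 10.5 in replicate 1 and 10.8 in replicate 2, above those of Rpl22 itself (6.19 and 8.16). Rps3a1, which encodes a 40S protein, had 8.04 and 8.13. Rpl36al, an autosomal paralog of the X-linked Rpl36a, had 8.81 and 9.89, again above its X-linked relative with 4.74 and 4.51. Rpl7l1, a paralog of Rpl7, had 4.88 and 4.88, against 4.06 and 3.82 for Rpl7. Unlike Rpl10l, Rpl39l and Rpl3l, all 4 had a promoter peak in both replicates. Rps27l, a member and a paralog of Rps27, had 6.47 and 6.67, against 4.25 and 4.95 for Rps27. In each of these 4 pairs of paralogs, which were chosen after their values were seen, the paralog had the higher signal in both replicates.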
